A study of Mus musculus with 24 samples.

Results

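The loci described here are stretches of mouse kidney mRNA at which the listing of an N6-methyladenosine (m6A) peak differed between cisplatin-injured and control kidneys and differed the opposite way between berberine-treated and injured kidneys. Overlapping peaks of all 12 deposited peak lists (at least 1 bp) were joined into 16801 loci, and the kidneys with a peak at each locus were counted in the control group, the injury group (IG) and the treatment group (TG). A locus was selected when at least 3 more IG than control kidneys and at least 3 fewer TG than IG kidneys had a peak, which 145 loci did, or when both differences ran the other way, which 76 loci did. These 221 loci are called gained in IG and lost in TG (gained, for short) and lost in IG and regained in TG (regained, for short). The names stand for counts of peak lists and not for measured methylation levels. Because the counts chose the loci, they are given as a description and without a test.

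m6A is set on adenosines of mRNA by a methyltransferase complex built around Mettl3 and Mettl14, can be removed by the demethylases Fto and Alkbh5, and is read by YTH domain proteins that affect splicing, translation and decay of the transcript. The methyltransferase prefers the short motif RRACH, in which R is A or G and H is A, C or T. MeRIP-seq pulls fragmented RNA down with an antibody against m6A, and the enriched stretches appear as read peaks. Cisplatin is a platinum drug that damages DNA and injures tubular cells of the kidney, and berberine is a plant alkaloid.

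All animals were male C57BL/6 mice aged 8 weeks. Controls (4 kidneys) received daily intraperitoneal saline and then vehicle. IG mice (4 kidneys) received the same saline and then 20 mg/kg cisplatin intravenously. TG mice (4 kidneys) were given 20 mg/kg of berberine each day over 14 days and then the same dose of cisplatin, and all kidneys were taken 72 h after the injection. No group received berberine without cisplatin, so the comparison of TG with IG shows berberine only in injured mice. Whole kidney was used, and fewer cells of a type, less transcript per cell and less methylation per transcript cannot be told apart in a peak list. Of the markers of kidney cell types, at least 1 locus was listed for 15 of 22 thick limb and distal tubule genes, 8 of 9 podocyte genes and 6 of 22 proximal tubule genes.

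The lists held 8531 to 9579 peaks per control kidney, 6745 to 8357 per IG kidney and 5901 to 6753 per TG kidney. The caller's score for a peak, 10 times the negative log10 p-value, ran from 13.0 upward, and 1086 of all 91013 peaks share the score 3100. Read counts are not part of the lists. The depth at a locus is therefore unknown, and a missing peak may be one that fell short of the calling threshold.

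The sequences of 9 short loci that lay wholly in coding exons are shown because the comparisons below turn on them. They are the loci of 3 genes with members of both kinds (Jak2, Rufy3 and Safb2), 2 gained loci listed in all 4 IG kidneys and in none of the other 8 (Itgb3 and Usp28), and 2 regained loci, of which the first had lower (Dst) and the second higher (Baz1a) scores in TG than in control kidneys. They are GRCm38 sequences of the gene's strand, 5′ to 3′, with RRACH in capitals. The sequence of exon 1 of Safb2 reaches into the 5′ UTR and is not printed.
Jak2 exon 20, chr19:29300909-29301098, plus strand: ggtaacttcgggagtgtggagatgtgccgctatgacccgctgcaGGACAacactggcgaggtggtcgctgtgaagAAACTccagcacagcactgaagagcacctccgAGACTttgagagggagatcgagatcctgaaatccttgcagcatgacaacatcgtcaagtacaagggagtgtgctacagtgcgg
Jak2 exon 22, chr19:29301899-29302071, plus strand: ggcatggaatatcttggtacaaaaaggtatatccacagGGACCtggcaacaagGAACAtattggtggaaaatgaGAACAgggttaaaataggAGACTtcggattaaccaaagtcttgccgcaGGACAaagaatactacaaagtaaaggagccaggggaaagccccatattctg
Rufy3 exon 9, chr5:88632439-88632531, plus strand: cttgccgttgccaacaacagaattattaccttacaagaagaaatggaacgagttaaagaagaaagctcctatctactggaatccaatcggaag
Rufy3 exon 15, chr5:88645537-88645601, plus strand: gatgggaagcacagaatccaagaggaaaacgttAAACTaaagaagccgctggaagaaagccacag
Safb2 exon 2, chr17:56582984-56583071, minus strand: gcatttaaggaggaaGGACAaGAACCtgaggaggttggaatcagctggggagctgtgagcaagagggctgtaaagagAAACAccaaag
Itgb3 exon 5, chr11:104637052-104637214, plus strand: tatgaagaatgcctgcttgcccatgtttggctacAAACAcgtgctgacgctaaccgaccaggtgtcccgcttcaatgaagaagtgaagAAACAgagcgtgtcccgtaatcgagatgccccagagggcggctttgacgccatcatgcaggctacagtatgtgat
Usp28 exon 17, chr9:49030835-49030921, plus strand: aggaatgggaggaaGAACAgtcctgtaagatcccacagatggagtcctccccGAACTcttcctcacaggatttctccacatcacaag
Dst exon 37, chr1:34185962-34186050, plus strand: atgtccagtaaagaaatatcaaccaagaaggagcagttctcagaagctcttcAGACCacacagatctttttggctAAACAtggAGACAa
Baz1a exon 8, chr12:54935482-54935581, minus strand: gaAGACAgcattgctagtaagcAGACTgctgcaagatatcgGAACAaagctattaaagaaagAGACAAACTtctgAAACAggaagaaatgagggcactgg
All but the Usp28 locus began and ended with an annotated exon, and the 87 bp at Usp28 lay within exon 17. Exon 22 of Jak2 held 5 RRACH sites and exon 8 of Baz1a held 6, whereas exon 9 of Rufy3 held none.

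The 145 gained loci made up 23.7% of the 613 loci with at least 3 more IG than control kidneys and 33.8% of the 429 loci with at least 3 fewer TG than IG kidneys. The 76 regained loci made up 5.29% of the 1437 loci with at least 3 fewer IG than control kidneys and 44.4% of the 171 loci with at least 3 more TG than IG kidneys. For the background, 3.82% of the 16061 loci with a peak in IG or control passed the difference upward in IG and 8.95% passed it downward. Of the 13357 loci with a peak in TG or IG, 3.21% passed the difference downward in TG and 1.28% passed it upward. IG kidneys enter both comparisons, so that the second difference is not independent of the first.

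Few members stood at the extreme of the rule. A peak in all 4 IG kidneys and in none of the other 8 was listed at 19 gained loci, and a peak in all 8 control and TG kidneys and in no IG kidney at 11 regained loci. The most frequent pattern of the gained loci was a peak in 3 IG kidneys alone (72 loci), followed by 4 IG kidneys with 1 TG kidney (29 loci), 4 IG kidneys with 1 control and 1 TG kidney (17 loci) and 4 IG kidneys with 1 control kidney (8 loci). Of the regained loci, 28 had a peak in 1 IG kidney and in all control and TG kidneys, 17 in 3 control and 3 TG kidneys, 16 in 4 control and 3 TG kidneys and 4 in 3 control and 4 TG kidneys. Both differences were exactly 3 kidneys at 89 gained and 45 regained loci. At every member other than the 19 and 11 loci above at least 1 difference was exactly 3, so that a single kidney decided membership.

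**Figure D1:**
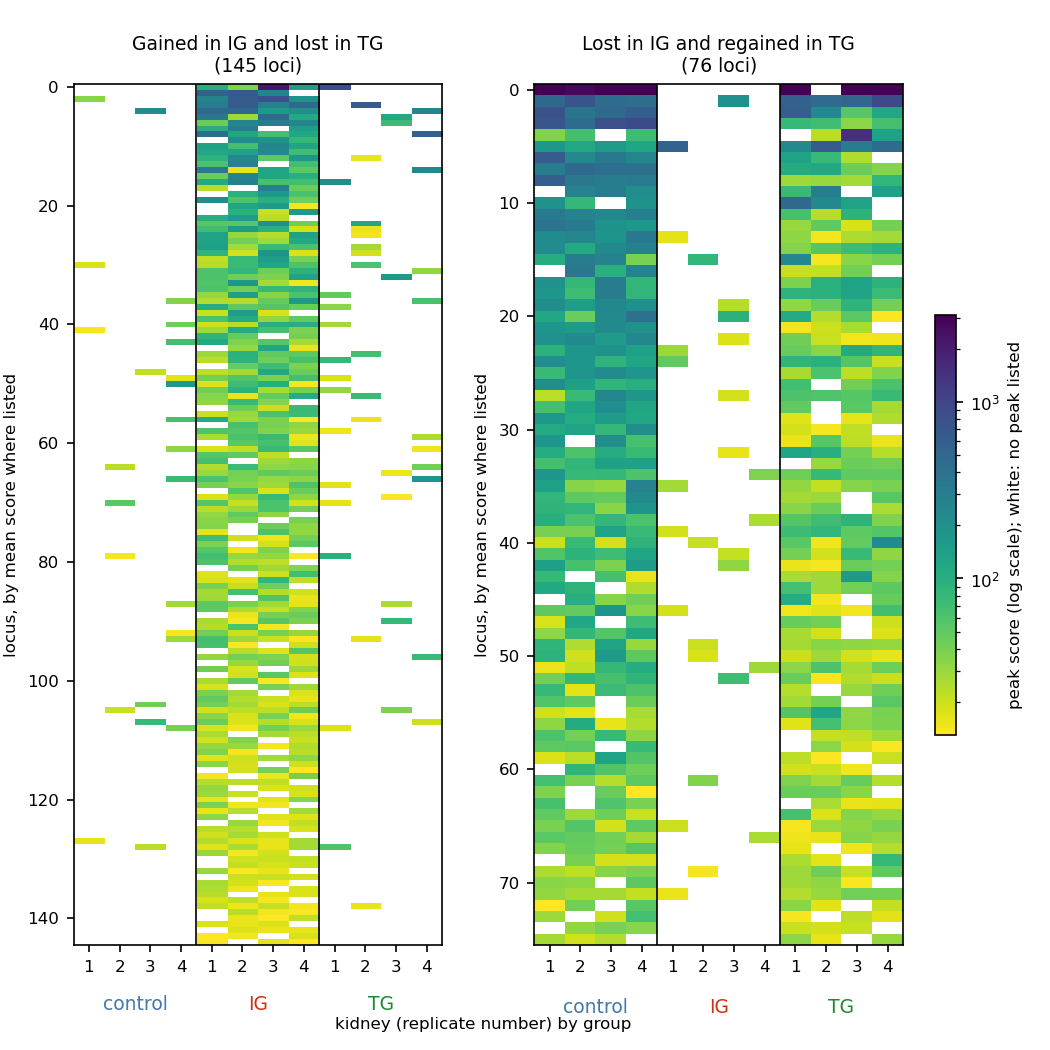
Peak score (colour, log scale) of each locus (row, ordered by mean score where listed) in each of the 12 kidneys (columns, by group and replicate number), with white for no listed peak. Peaks of the 145 gained loci fill the IG columns and are mostly of low score. At 62 of the 76 regained loci the mean TG score lies below the mean control score, and the TG columns are mostly lighter.

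Each IG kidney listed 122 to 130 of the 145 gained loci, so that the IG kidneys contributed nearly alike. Control kidneys 1 to 4 listed 4, 4, 5 and 12 of them, and the TG kidneys 8 to 14. Of the 76 regained loci, the control kidneys listed 67 to 75, the TG kidneys 65 to 71 and the IG kidneys 4 to 9. The heat map of scores shows the same blocks locus by locus.

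Scores at the members were low for the gained class and unequal between groups for the regained class. The 508 IG peaks at gained loci had a median score of 35.1, against 71.3 over all peaks of the 12 kidneys, and 78.5% of them lay below the median of their own list. A score under 20 was found for 23.4% of these peaks, against 13.5% of all peaks. At regained loci the 283 control peaks had a median score of 84.6, with 42.8% below the median of their list, whereas the 271 TG peaks had a median score of 35.5, with 77.5% below it. The TG peaks at regained loci thus stood about as low in their lists as the IG peaks at gained loci.

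Membership changed when peaks of low score were left out. With the lists cut to the length of the shortest, the 5901 highest-scoring peaks of each kidney, 100 gained and 74 regained loci met the rule, but only 53 and 38 of them overlapped the loci described here. With only scores at or above 71.3 there were 68 and 52, of which 10 and 8 overlapped the present members. Among the loci picked by the naming rule given in the methods (38 gained and 28 regained), those that met the selection in both of these settings were those of Ctnnd1, Itgb3, Mtss1, Slc12a1, Zdhhc5, Cd59b, 1810009A15Rik, Gm10721 and exon 22 of Jak2 among the gained loci, and those of Dido1, Gnaz, Baz1a, Ktn1, Lamc1, Prpf38b, 1700047I17Rik2 and exon 1 of Safb2 among the regained loci.

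Among the 19 gained loci in all 4 IG kidneys alone, those of Ctnnd1, Itgb3 and Mtss1 had the highest mean scores. Ctnnd1, the gene of p120 catenin, which holds cadherins at cell junctions, had scores of 131, 64.7, 253 and 126 in IG kidneys 1 to 4 (144 ± 78.8, SD, n = 4) over its first exon (chr2:84650321-84650745) in the 5′ UTR. Itgb3, an integrin β subunit of adhesion receptors, had scores of 115, 133, 244 and 69.5 (140 ± 73.9, SD, n = 4) over exon 5, a coding exon whose sequence is given above. In Mtss1, which links membranes to actin, a stretch of the last exon across the stop codon (chr15:58943165-58944130) had scores of 45.4, 262, 125 and 97.7 (133 ± 92.4, SD, n = 4). None of these 3 loci was listed in a control or TG kidney, and Itgb3 and Ctnnd1 had no other locus in any kidney.

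The other loci of this pattern had lower scores. Morn4, over exon 2 with the start codon, reached 218 in IG kidney 1 and 42.5 to 99.9 in the others. Thsd7a, a membrane protein known from podocytes, had scores of 129, 41.9, 28.8 and 112 in its 3′ UTR. Lrp6, a co-receptor of Wnt ligands, had scores of 22.1, 77.7, 144 and 39.0 over its second exon. The means of these IG scores spanned 24.3 at Fyb2, an adaptor of immune cells, to 144 at Ctnnd1.

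Several further genes of this pattern act on chromosomes or RNA. Usp28, a deubiquitinase of the DNA damage response, had IG scores of 20.2, 30.6, 63.0 and 74.7 over the stretch printed above. Esco1, an acetyltransferase of the cohesin ring that holds sister chromatids together, had scores of 69.8, 19.6, 14.8 and 40.8 over exon 4. Id4, an inhibitor of basic helix-loop-helix transcription factors, had 83.5 in IG kidney 3 and 16.1 to 22.4 in the other 3. In Tnrc6b, a protein of microRNA-guided silencing, the locus had scores of 22.9, 29.9, 61.0 and 41.9 and lay in a transcript that is not annotated as coding. At Id4, and at Fam19a5 (66.6 in IG kidney 2 and 19.5 to 27.3 in the others), a single kidney stood above the rest.

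**Figure D2:**
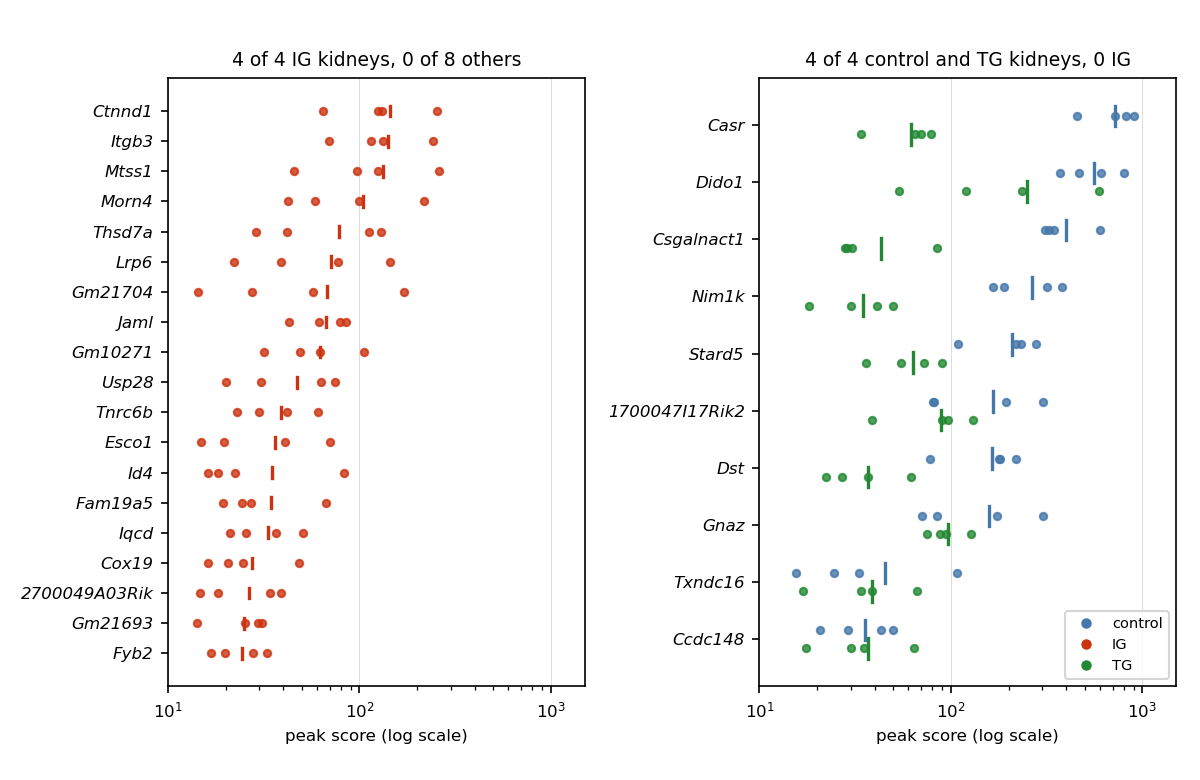
Peak score (log scale) at the 19 loci with a peak in every IG kidney and in no other kidney (left) and 10 of the 11 loci with a peak in every control and TG kidney and in no IG kidney (right). Points are kidneys and vertical bars are group means. At Casr, Csgalnact1, Nim1k, Stard5 and Dst all 4 TG points lie left of all 4 control points.

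Of the gained loci with a peak outside IG or in 3 IG kidneys, those of highest score included a marker of the thick ascending limb. Slc12a1, the sodium, potassium and chloride cotransporter of that segment, had scores of 262, 635, 786 and 190 in IG kidneys 1 to 4 (469 ± 288, SD, n = 4) over exon 1 in the 5′ UTR (chr2:125152505-125152633), 34.5 in control kidney 1 and no peak in the other 7. All 4 IG scores exceeded the only control score. The scores are not set against the level of the transcript, so the direction of methylation per transcript was not tested. Its 3 other loci, in exons 2, 24 and 25, were listed in at most 2 kidneys of any group. Zdhhc5, a palmitoyltransferase, had scores of 579, 651 and 263 in IG kidneys 1 to 3 over exon 1 in the 5′ UTR and no peak elsewhere. Cd59b, an inhibitor of the complement attack complex, had scores of 218, 180 and 81.1 in IG kidneys 2 to 4 over exon 2.

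In several strong gained loci a lone control or TG kidney had a score as high as those of IG. In Ptprb, a receptor phosphatase of endothelial cells, the 3′ UTR had IG scores of 354, 28.5, 453 and 109 and a score of 112 in TG kidney 3. At 1810009A15Rik the IG scores were 465, 491, 163 and 201, beside 219 in control kidney 3 and 253 in TG kidney 4. Serbp1, an RNA-binding protein, had 45.1, 257, 307 and 259 in IG and 74.2 in TG kidney 3. The locus of Eif3j2, a subunit of a translation initiation factor, had 2206 in IG kidney 3, 36.6 to 141 in the other IG kidneys and 825 in TG kidney 1, above 3 of the 4 IG kidneys. The count of kidneys alone separates the groups at these loci, and the scores overlap.

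The 11 regained loci in all control and TG kidneys and in no IG kidney had their highest control mean at Casr. Casr is the calcium-sensing receptor, which in the kidney sits mainly in the thick ascending limb. Its exon 2 (chr16:36517602-36518028), which holds the start codon, had scores of 718, 454, 821 and 901 in control kidneys 1 to 4 (723 ± 195, SD, n = 4) and of 78.9, 69.9, 33.8 and 64.7 in TG kidneys 1 to 4 (61.8 ± 19.5, SD, n = 4). The TG mean was 8.54% of the control mean. The peak was listed again in every TG kidney, at a score far below that of every control kidney. Exon 4 of Casr, which is not a member, was listed in 4 control, 3 IG and 4 TG kidneys, with control scores of 1221, 800, 1308 and 1289, IG scores of 114, 24.9 and 66.9 and TG scores of 110, 227, 116 and 65.2. There too every TG score lay below every control score. Exon 5 was listed in 4, 0 and 2 kidneys.

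Dido1, a chromatin-associated protein, also belonged to these loci, with scores of 800, 370, 466 and 608 in controls (561 ± 187, SD, n = 4) and of 597, 236, 53.5 and 119 in TG (251 ± 242, SD, n = 4) over exon 4 (chr2:180687476-180687797). The score of TG kidney 1 lay within the control range and those of the other 3 lay below it.

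TG scores lay below all control scores at further loci of this pattern. Among them were the 3′ UTR of Csgalnact1, an enzyme of chondroitin sulfate synthesis (TG mean 10.8% of the control mean), the start codon segment of Nim1k, a protein kinase (13.1%), the 3′ UTR of Stard5, a sterol-binding protein (30.0%), and exon 37 of Dst, a linker of cytoskeletal filaments (22.5%). Dst had control scores of 78.3, 178, 220 and 180 and TG scores of 26.9, 61.6, 22.3 and 37.0. The Stard5 locus joins peaks of both strands and overlaps Il16, so that its gene is uncertain. At 4 other loci of this pattern the groups overlapped. Gnaz, a G protein α subunit, had control scores of 173, 70.9, 303 and 85.0 and TG scores of 87.4, 94.2, 128 and 74.9 over exon 3, and at Ccdc148 the mean TG score in the 3′ UTR was 103% of the control mean.

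Other regained loci of high score showed every relation of TG to control. In Lamc1, the laminin γ1 chain of basement membranes, the 3′ UTR had control scores of 497, 740, 447 and 439, a score of 199 in IG kidney 3 and TG scores of 580, 460, 514 and 906, a TG mean of 116% of the control mean. Baz1a, a subunit of a chromatin remodelling complex, had control scores of 166, 114, 164 and 121 over exon 8 and TG scores of 230, 635, 314 and 444, all above the controls, while IG kidney 1 had 550. Adrb1, the β1 adrenergic receptor, had control scores of 629, 235, 341 and 253 and TG scores of 133, 76.8 and 24.9, with no peak in TG kidney 4. Dtd1, an enzyme that removes D-amino acids from tRNA, had control scores of 181 to 338 and TG scores of 14.2 to 33.0. At Prpf38b, a splicing factor, 3 control and 3 TG kidneys shared the score 3100, control kidney 2 had 2730 and TG kidney 2 and all IG kidneys had no peak, so that scores could not order these kidneys. Plin4, a protein of lipid droplets, had 1460 in TG kidney 3 against 36.9 to 71.1 in the 3 control kidneys with a peak.

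The comparison of TG with control asked whether the regained loci returned to their control standing. The rule did not compare TG with control. It did use the presence of peaks in these kidneys, which also enters the ranks. Scores were turned into percentile ranks within each kidney's list, with rank 0 for a missing peak, and tested with a two-sided exact permutation test over all 70 arrangements of the 8 kidneys at the 4220 loci with a peak in at least 3 control and at least 3 TG kidneys, a filter that all 76 regained loci passed by their selection. The smallest p this design allows is 0.0286, which is reached where the ranks of the groups do not overlap, and it measures the spread between these samples only. Ranks were lower in TG without overlap at 20 of the 76 regained loci (26.3%), against 17.7% of all loci tested, and higher without overlap at 2, against 5.26% of all loci. After Benjamini-Hochberg adjustment over all loci the lowest adjusted p of this exact permutation test was 0.124, so that no locus passed.

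The 20 loci lower in TG without overlap included Casr, Csgalnact1, Nim1k, Dst, Stard5, Adrb1, Dtd1, Ank2, an anchor of membrane proteins to the cytoskeleton, and exon 11 of Ccdc148. The largest difference was found at App, the amyloid precursor protein gene, whose exon 16 had a mean rank of 72.2 in controls and 9.89 in TG. The 2 loci higher in TG were exon 8 of Baz1a (mean rank 65.9 in controls and 84.2 in TG) and exon 5 of Gpatch8 (10.1 and 42.9). The rank difference, TG minus control, was negative at 59 of the 76 loci (77.6%) and at 67.9% of all loci tested. Its median was -20.5 percentile points at the regained loci and -5.89 over all loci, and with lists of equal length it was -10.5 and 0.61, so that the sign over all loci turned. In raw scores, the TG mean lay below the control mean at 62 of the 76 loci, and its median was 46.4% of the control mean (range 8.54 to 928%). With lists of equal length, 43 regained loci passed the filter and 7 of them (16.3%) were lower in TG without overlap, against 8.59% of all loci. At loci with a peak in each of the 8 kidneys, where no rank is 0, 9 of 39 regained loci (23.1%) and 19.8% of all loci were lower, shares that lie close together. Leaving out 1 kidney made the groups unequal, with 35 arrangements, and loci were counted at p under 0.05 of the same permutation test. With unequal groups a locus without overlap can miss this limit, so these shares are not comparable with those of all kidneys. Leaving out a control kidney gave 17.1% to 26.3% of regained loci, against 7.75% to 8.44% of all loci. The fewest (13 loci) were counted without control kidney 4. Leaving out a TG kidney gave 19.7% to 26.3% against 17.7% to 18.8%, and the shares came closest without TG kidney 2, at 19.7% against 18.5%.

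**Figure D3:**
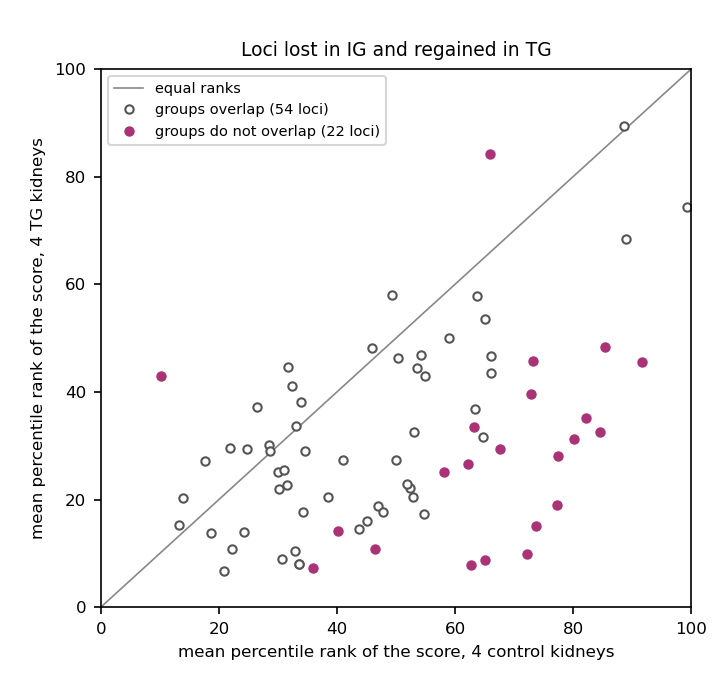
Mean percentile rank of the score in the 4 TG kidneys against that in the 4 control kidneys for the 76 regained loci, with 0 counted for a kidney without a peak. Filled points are the 22 loci whose 4 TG and 4 control ranks do not overlap, 20 below and 2 above the line of equal ranks.

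In 3 genes there were members of both kinds, and in each of them the 2 loci lay on different exons of the same transcript. Jak2, the kinase that carries signals of cytokine receptors, had scores of 118, 44.1, 230 and 392 in controls, 91.1 in IG kidney 3 and 109, 24.3, 52.6 and 13.3 in TG over exon 20. Over exon 22 it had 102, 307 and 148 in IG kidneys 1, 2 and 4 and no peak in any control or TG kidney. The IG kidney with a peak in exon 20 was the one without a peak in exon 22, so that each of the 12 kidneys listed exactly 1 of both exons. Exon 23 was listed in all 12 kidneys, and exon 24 in all but 1 IG kidney. 

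Safb2, a protein of the nuclear matrix that binds RNA and DNA, had peaks over exon 1 in 3 control kidneys (188, 81.3 and 189) and 3 TG kidneys (474, 236 and 133) and over exon 2 in all 4 IG kidneys (42.6, 91.0, 26.4 and 40.6) and TG kidney 1 (31.4). TG kidney 1 listed both exons. Peaks in exons 7 and 15 of Safb2 were listed in all 12 kidneys. In Rufy3, which acts on the transport of endosomes and lysosomes, exon 9 had scores of 86.1, 58.7 and 43.1 in control kidneys 2 to 4 and 19.04, 20.8 and 14.7 in TG kidneys 1 to 3, and exon 15 had 18.2, 22.5 and 13.9 in IG kidneys 1 to 3. All but the control scores were near the lower limit of the lists, and exon 14 between them was listed in all 12 kidneys.

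Dido1 showed a like arrangement with exon 3, which stood just outside the rule. Exon 3 had scores of 777, 547, 342 and 648 in the 4 IG kidneys, 26.0 and 122 in control kidneys 1 and 4 and no peak in TG, whereas the neighbouring exon 4 was listed in every control and TG kidney and in no IG kidney. A peak in exon 16 was listed in all 12 kidneys. In the plot of neighbouring exons most IG kidneys stand on one exon and most control and TG kidneys on another, except at exon 3 of Dido1, which 2 control kidneys also listed. At Safb2 and Rufy3 some kidneys listed neither exon. Because these loci are whole exons of 1 transcript, they are not independent observations.

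**Figure D4:**
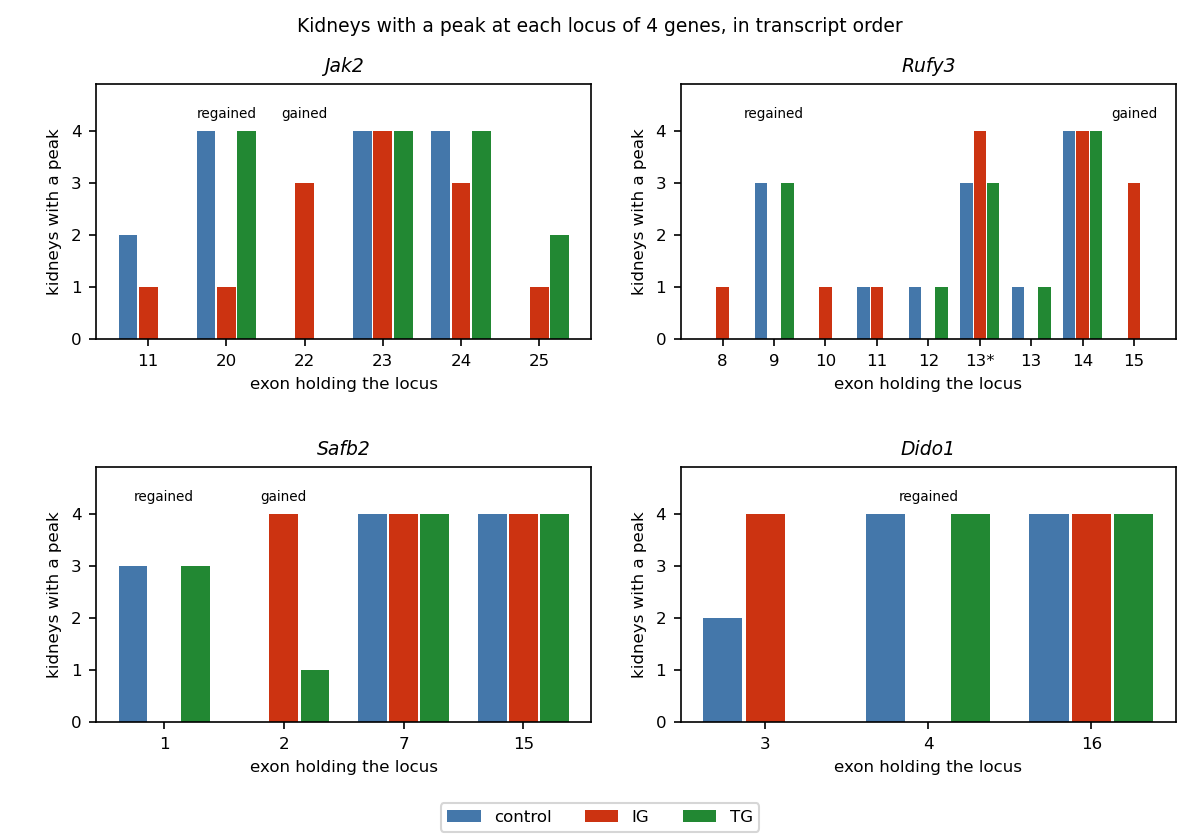
Number of control, IG and TG kidneys (of 4 each) with a peak at every locus of Jak2, Rufy3, Safb2 and Dido1, in transcript order and labelled by exon number. Loci of the 2 kinds described are marked, and the asterisk marks the last exon of a shorter Rufy3 transcript. At Jak2 exon 20 was listed in 4 control, 1 IG and 4 TG kidneys and exon 22 in 0, 3 and 0.

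In 4 genes there were 2 members of the same kind. Arap2, a regulator of small GTPases, had gained loci over exon 2 (95.7, 167 and 62.7 in IG kidneys 2 to 4) and exon 6 (17.4, 30.7, 76.7 and 32.2 in IG, 13.4 in TG kidney 3). Slc13a1, the sulfate cotransporter of the proximal tubule, had gained loci over exons 4 and 5, with scores of 18.4 to 41.0 in IG kidneys 2 to 4 and none elsewhere. Ccdc148 and Egfl6, a secreted protein of the extracellular matrix, had 2 regained loci each. In Ccdc148 these were exon 11 and the 3′ UTR, whereas exons 12 and 13 between them were listed in all 4 controls (scores of 17.7 to 54.3) and in no IG or TG kidney. Exon 8 of Egfl6 had control scores of 91.9 to 185, 29.7 in IG kidney 1 and TG scores of 34.3 to 108.

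The members fell in 214 genes of the 7812 with any locus, 143 genes with a gained locus and 74 with a regained locus. When the genes were sorted by known role, after the members were known, 21 genes with a gained and 14 with a regained locus act in transcription or chromatin, 19 and 14 in signalling, 15 and 7 in RNA processing and translation, 13 and 7 in the cytoskeleton, adhesion and matrix, and 13 and 4 in membrane traffic. Metabolic enzymes held 11 and 5, protein turnover 9 and 3, cell cycle and DNA repair 7 and 2, membrane transport 7 and 1, and immune or interferon responses 6 and 5. No role was given to 22 and 12 genes. These counts have no background and carry no test.

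Chromatin genes were found by symbol in both directions. Of 113 such genes with a locus, 4 had a gained locus (Chd7, Ino80, Kdm2b and Kmt2c) and 5 a regained locus (among them Baz1a, Brd7, Dido1 and Kmt5a), 3.54% and 4.42%, beside 1.83% and 0.947% of all genes with a locus. Shares here and in the lists below are per gene and not adjusted for the number of loci in a gene. A gene with many loci has more chances to hold a member. The 4 gained loci were weak, with IG scores of 14.4 to 42.1. Kmt5a, a histone H4 methyltransferase, had control scores of 201, 142, 85.1 and 101 over exon 2 and TG scores of 68.2, 42.3 and 63.2, with no peak in TG kidney 2. Of 156 RNA-binding and splicing genes by symbol, 6 had a gained locus (3.85%) and 1 a regained locus (0.641%).

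Counts for further lists are to be read against the shares of all genes with a locus, 1.83% with a gained and 0.947% with a regained one. Of 136 solute carriers, 3 had a gained locus (2.21%: Slc12a1, Slc13a1 and Slco2b1) and 1 a regained locus (0.735%), that of Slc2a4, the insulin-responsive glucose transporter, with control scores of 105 to 167 and TG scores of 15.9 to 24.9 in 3 kidneys. Of 211 ubiquitin ligases and deubiquitinases, 4 had a gained (1.896%) and 1 a regained locus (0.474%), and of 376 zinc finger genes 2 and 2. The counts were 4 and 2 of 195 kinases and phosphatases and 1 and 1 of 37 collagens, laminins and integrins. They were 2 and 0 of 72 ion channels and pumps, and 0 and 0 of 20 ATP-binding cassette transporters. Of 107 genes matched by symbol as guanine nucleotide exchange or GTPase-activating, 2 had a gained and 3 a regained locus. The 3 include Gnaz, which is itself a G protein α subunit. Slc12a1 was the only member among the 15 thick limb and distal tubule genes with a locus, and the lists for proximal tubule, collecting duct, podocyte, endothelial, immune and stromal cells, with only 5 to 9 genes with a locus each, held no member. These lists are not complete. They leave out Casr, Slc13a1, Thsd7a and Ptprb, members that are tied above to the thick limb, proximal tubule, podocytes and endothelium.

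Lists tied to cisplatin injury and to m6A itself are short, and a count of 0 or 1 in them is not read as a difference from all genes. None of 20 p53 and DNA damage genes, 18 AP-1, immediate early and Kruppel-like genes, 11 acute phase and coagulation genes, 8 genes of fatty acid oxidation, 6 genes of the NRF2 pathway and 15 genes of the m6A machinery with a locus held one. Of 14 apoptosis and necroptosis genes, Apaf1, the scaffold of the apoptosome, had a gained locus in exon 5 with scores of 44.8, 20.6 and 77.4 in IG kidneys 2 to 4. Of 7 tubular injury markers, Cd44, a hyaluronan receptor, had a gained locus in exon 5 with scores of 25.4, 63.0, 76.0 and 14.9 in IG and 25.7 in TG kidney 4. Both loci had scores near or below the median of all peaks.

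There were 5 regained loci in genes that interferon induces, a group put together after the values were seen, so that this count has no background. Gbp4, a guanylate-binding GTPase, had control scores of 111, 87.9 and 24.8 and TG scores of 28.7 to 66.3 in its 3′ UTR, without a peak in IG. Gbp5 had control scores of 60.0 to 173, TG scores of 43.5 to 78.5 and 37.2 in IG kidney 4. The other 3 were Ifi213, Gm12250 and Gm1966, the last 2 assigned by transcripts that are not annotated as coding. Gbp4 was the only member among the 17 genes with a locus on the interferon list drawn up for this comparison (5.88%, beside 0.947% of all genes with a locus). On the gained side, Ifnar1, a chain of the type I interferon receptor, had IG scores of 38.9 to 66.8, 16.9 in control kidney 4 and 17.5 in TG kidney 1.

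Of 21 genes that the study lists for contrary trends, 3 had a gained locus (Jaml, Lep and Slc12a1) and 4 a regained locus (Egfl6, Gbp4, Gnaz and Snai2). That list was chosen by the study on these samples, so it is no independent evidence. The directions the study gives these genes were not used, and the directions here are those of the peak lists alone. Jaml, an adhesion molecule of leukocytes and epithelia, had IG scores of 61.8, 43.0, 78.9 and 85.5 in its 3′ UTR and no other peak. Lep, the hormone leptin, had scores of 29.3, 20.4 and 18.1 in 3 IG kidneys. Snai2, a transcription factor of epithelial to mesenchymal transition, had control scores of 22.7, 77.4, 249 and 172, a score of 19.1 in IG kidney 3 and TG scores of 54.6 to 75.3 in its 3′ UTR.

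Other loci of the same genes were counted to see whether a whole transcript or a single locus differed in listing. At least 1 other locus was found in 95 of the 143 genes with a gained locus and in 62 of the 74 with a regained locus. In 40 and 32 genes another locus was listed by 3 or more kidneys per group. The 303 other loci of the first set were listed in a mean of 1.99 control, 1.94 IG and 1.57 TG kidneys, and the 261 of the second in 2.52, 1.75 and 1.59, beside 2.13, 1.75 and 1.51 over the 16580 loci that are not members. When any peak in the gene was counted, the pattern of the member remained in 61 genes with a gained and 30 with a regained locus, counts that take in 48 and 12 genes without another locus, where the pattern is fixed. By the same count, in 42 and 40 genes each group had 3 or more kidneys with one.

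By place in the transcript, the CDS was the most frequent segment of both classes, and the intervals of their shares overlapped in every segment. Segments were assigned by midpoint, with codon segments of 200 nt to each side, for the 138 gained and 73 regained loci in coding transcripts. The CDS held 48.6% of the gained loci (95% Wilson interval 40.4 to 56.8%), 63.0% of the regained loci (51.5 to 73.2%) and 57.0% of all loci. The stop codon segment held 15.9%, 8.22% and 13.4%, the 3′ UTR 17.4%, 13.7% and 13.2%, while 13.0%, 15.1% and 14.7% lay at the start codon. The 5′ UTR held 7 gained loci (5.07%, interval 2.48 to 10.1%), no regained locus (interval up to 5.00%) and 1.70% of all loci. With codon segments of 100 nt the 5′ UTR share was 8.70% of the gained loci, 2.74% of the regained loci and 3.56% of all loci. The intervals cover counting error over loci only. The 7 were those of Slc12a1, Ctnnd1, Zdhhc5, Pabpc4, Hk1, Slco2b1 and Prag1, each in exon 1.

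**Figure D5:**
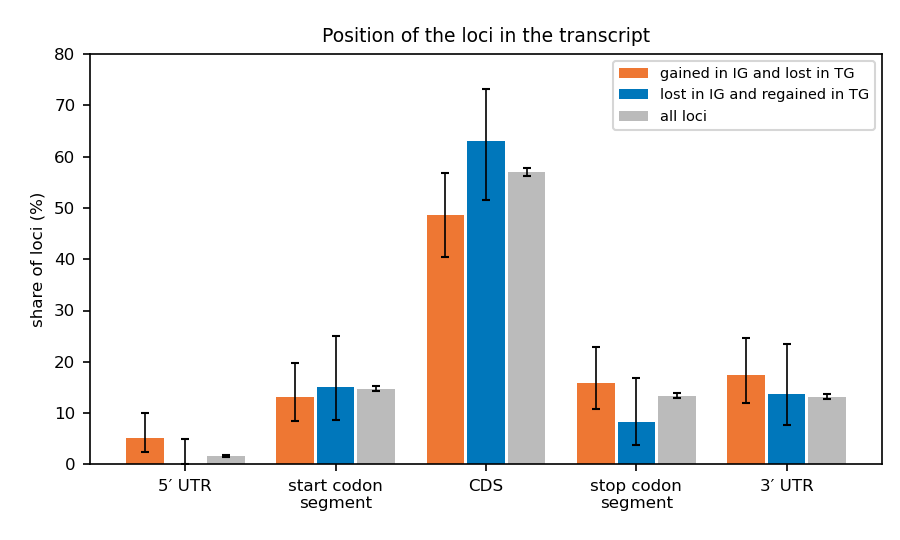
Share of loci (%) in each transcript segment for 138 gained, 73 regained and all 16445 loci in coding transcripts, with 95% Wilson intervals. The CDS was the most frequent segment of each set, with 48.6%, 63.0% and 57.0%, and the intervals of the 2 classes overlap in every segment.

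Loci often coincided with exons. An annotated exon was matched at both ends by 56.6% of the gained, 71.1% of the regained and 65.1% of all loci, and the median length was 425 bp, 279 bp and 289 bp. At least 1 RRACH on the gene's strand was found in 93.8% of the gained loci, 94.7% of the regained loci and 93.8% of all loci, against 84.1%, 85.5% and 81.7% on the opposite strand. RRACH occurred 16.3, 17.9 and 16.1 times per kb on the gene's strand. The form GGACT, which is 1 of the forms of RRACH and is counted within it, was found in 43.4%, 36.8% and 39.1% of the loci (34.5%, 42.1% and 36.2% on the opposite strand). The motif shares of all loci lie within the 95% Wilson intervals of the members' shares, whereas the share of gained loci that match an exon (interval 48.4 to 64.3%) lies below that of all loci.

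There were 11 members that could not be placed with certainty, because at least 50% of their 31-mers occur in other loci of these lists. They are 9 gained loci (Gm3055, Gm10717, Gm10721, Gm4064, Gm10256, Gm21693, Gm21704, Gm21708 and Rbmy, the last 6 on the Y chromosome) and 2 regained loci (1700047I17Rik2, all of whose 31-mers recur at Fam177a, and Gm3883). Gm10721 had IG scores of 303, 641, 286 and 482 and a score of 628 in TG kidney 2. Without these 11 loci there were 136 gained and 74 regained loci.

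Just outside the rule, 138 loci passed the first difference of the gained class and missed the second by 1 kidney, and 75 missed the first by 1 kidney. For the regained class the numbers were 132 and 20. Ap3d1, a subunit of a sorting adaptor, had IG scores of 1985 to 3057, 1642 in control kidney 2 and 2376 and 2802 in 2 TG kidneys. Itgb2l had IG scores of 105 to 1220, with peaks also in 1 control and 2 TG kidneys. On the regained side, Aamp, Tada2b and Hspa1b, an inducible heat shock protein, had a peak in all 4 control, 1 IG and 3 TG kidneys. Hspa1b had control scores of 142 to 469, 405 in IG kidney 2 and TG scores of 1560, 927 and 823.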

How the data were processed

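The authors depleted ribosomal RNA, selected poly(A) RNA, fragmented it, enriched it with an m6A antibody and sequenced the libraries. Reads were trimmed with cutadapt 1.9.3 and aligned to mm10 with HISAT2 2.0.4 (per the submitters' notes), and peaks were called with MACS, whose version, threshold and control setting are not given in the sources used here. The 12 deposited peak lists give a position and a score per peak, the authors' negative log10 p-value times 10, and only peaks over mRNA exons. The 12 input libraries are not analysed here, so transcript level was not measured.

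Peaks overlapping by 1 bp or more were joined with Python 3.11.15, numpy 2.4.6 and scipy 1.17.1. Sequence was read with pysam 0.24.0 and samtools 1.23.1, and figures were drawn with matplotlib 3.10.9. Each kidney was placed in a group by its label, and a locus was assigned to the gene with the most exon overlap on its strand (GENCODE, then RefSeq) and placed in the transcript of longest CDS with an exon there. The members and the 27 gene lists were chosen with earlier results of these data known, and roles were assigned after the members were known. Named loci were those with a peak in all 4 kidneys of each group that has it and in no other kidney, the 10 of highest mean score among the rest, members in explicit gene lists, genes with 2 or more members and the 3 strongest loci just outside the rule, per direction. Loci named outside this rule, chosen after their values were seen, are those of App, Gpatch8, Slc2a4, Gbp5, Kmt5a and Ifnar1, the other interferon and chromatin genes, the multicopy genes and some 5′ UTR loci. The permutation test was tested on simulated data. A regained locus is not reported here by name.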

Additional observations from a re-analysis of the deposited data

Results flagged for a closer look

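In 10 of 85 groups of 4 kidneys, 1 kidney stood apart from the other 3 by more than Dixon's 95% critical value (the gap to the nearest kidney over the range). Chance flags about 1 in 20 groups where values are normally distributed, which was not checked for these scores and counts. Control kidney 4 listed 12 of the 145 gained loci, against 4 to 5 in the other controls. TG kidney 2 listed 44.1% of the other loci of genes with a regained locus, against 38.3% in each of the other 3.

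Among IG scores, Id4 had 83.5 in kidney 3 (16.1 to 22.4 in the others), Fam19a5 had 66.6 in kidney 2 (19.5 to 27.3), Eif3j2 had 2206 in kidney 3 (36.6 to 141) and Gm10717 had 427 in kidney 1 (67.5 to 124). In TG, Med15, a subunit of the Mediator complex, had 248 in kidney 1 (14.1 to 40.7) and Csgalnact1 had 84.6 in kidney 4 (27.9 to 30.4). In controls, Csgalnact1 had 605 in kidney 1 (310 to 347), and Prpf38b had 2730 in kidney 2, where the other 3 shared the score 3100. At Csgalnact1 the TG and control scores did not overlap with these kidneys included.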

How the results depend on the processing

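No alternative run turned the sign of IG minus control at any of the 38 gained and 28 regained loci picked by the naming rule. This was nearly fixed in advance, since at most of these loci control or IG had no peak and leaving out peaks adds none. The difference of TG and IG was not followed in this way, and other loci were not followed singly. With only peaks at or above the median score, 29 of the 38 and 20 of the 28 no longer met the rule. With only peaks at or above the median score, 68 loci were gained, and with a peak required in all 4 kidneys against 0, 19 were gained and 11 regained. With a difference of 2 kidneys the numbers were 716 and 374. Leaving out 1 kidney at a time gave 120 to 147 gained loci, of which 88 to 132 were among the 145, and 53 to 88 regained loci, of which 48 to 64 were among the 76. Joining peaks within 100 bp gave 145 and 76 loci, and joining by strand 146 and 76. Leaving out loci of near-identical sequence, an alternative chosen after seeing the data, gave 136 and 74.

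Regained loci lower in TG than in control at p under 0.05 of the exact permutation test numbered 20 with all kidneys. They numbered 13 to 20 without a control kidney (against 7.75% to 8.44% of all loci). Without a TG kidney they numbered 15 to 20 (against 17.7% to 18.8%). In these runs of unequal groups a locus without overlap can miss the limit, so the counts are not comparable with the 20. There were 9 of 39 where all 8 kidneys had a peak (23.1%, against 19.8% of all loci) and 7 with lists of equal length. The replicate block, a sign-flip test on differences of same-numbered kidneys, gave 0, since its smallest p is 0.125. Same-numbered kidneys correlated at -0.0241 to 0.0169, and 1 of 4 numbers correlated best with its own, so these correlations showed no pairing by number. A shared batch was not tested. Within 50 bp of the midpoint, RRACH was found in 85.5% of gained and 81.6% of regained loci and GGACT in 11.03% and 7.89%, beside 80.1% and 10.3% of all loci. On the opposite strand RRACH was found in 62.8%, 63.2% and 63.0% of gained, regained and all loci. With codon segments of 100 nt, 8.22% of regained and 8.70% of gained loci lay at the start codon, and 8.70% of gained loci in the 5′ UTR (5.07% with 200 nt), beside 8.44% and 3.56% of all loci. Read depth was not available, so the limit it sets on a missing peak is unknown.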
